A study of Homo sapiens with 54 samples.

Results

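The response of hMSN-like cultures to repeated dopamine was followed over 2, 3, 4 and 5 days of daily dosing, and the question was which genes rose or fell steadily as doses were added. The cells were hMSN-like cells, cultures of H9 human embryonic stem cells differentiated with activin A towards medium spiny neurons, the main output neurons of the striatum. The libraries were chosen by their labels as the dopamine arm of the daily time course, which gave 11 of the 54 samples of the series: 3 libraries each at 2 Day, 3 Day and 4 Day, and replicates 2 and 3 at 5 Day (replicate 1 was not analysed here). Every culture received 1 mM dopamine dissolved in ascorbic acid for 1 h a day, and RNA was taken 1 h after the last dose. Harvest was fixed at DIV50 (days in vitro), so cultures with more doses had begun dosing at a younger age. The 3 AA vehicle libraries received ascorbic acid alone and were kept out of the slope, and their levels are given beside each gene. All cultures came from 1 cell line and were mixed, with progenitors and non-neuronal cells beside neurons, so that fewer cells of a type and less RNA per cell cannot be told apart. The study calls the replicates independent without saying whether they were separate differentiations, and a p-value here measures the spread between these libraries only.

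The 11 libraries held 8449292 to 14303800 exon reads (median 11161096), and 16532 genes passed the filter on low counts. Markers of the labelled cell type were present at modest levels: PPP1R1B, which encodes DARPP-32, lay between a TPM of 8.06 and 21.8 over the 11 libraries, BCL11B (CTIP2) between 30.3 and 53.4, the D2 receptor gene DRD2 between 2.37 and 5.72 and the D1 receptor gene DRD1 between 0.278 and 2.49. TPM is a level scaled for exon length and library size that sums to the same total in every library. Markers of other cell types were also present. A list of 10 cortical excitatory markers summed to 1207 to 1692 TPM over the 11 libraries, above the 263 to 313 of a list of 20 striatal markers. The 6 choroid plexus markers summed to 488 to 3271. Such sums follow their highest members and do not count cells. Replicate 2 of 5 Day was the shallowest library, and 12.1% of its exon reads came from the 13 mitochondrially encoded protein genes, against 5.70% in replicate 3 of 5 Day and 6.62 to 8.38% in the other 9 libraries; these genes took 41.5% of its TPM, which leaves less for nuclear genes. Reads in introns made up 18.3% of the gene reads in replicate 2 of 5 Day and 14.6% in replicate 3, compared with 12.7 to 15.0% at 2 Day, 14.3 to 17.1% at 3 Day and 16.0 to 16.4% at 4 Day.

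Dopamine acts on G protein-coupled receptors of a D1-like class, which raise cyclic AMP, and a D2-like class, which lower it. In medium spiny neurons such signals reach CREB and the ERK kinase pathway and switch on immediate early genes, transcription factors of the FOS, JUN and EGR families whose transcripts appear within an hour and decay quickly. Repeated stimulation can blunt this first wave, a behaviour known as desensitization, and later waves of genes can follow on the next days. A straight line through the days detects a gain or a loss that builds up dose by dose, and a departure from the line detects genes that peak or dip on a particular day.

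Very few genes passed the test for a slope over the days, which does not show that the others lacked a steady change. With edgeR's quasi-likelihood test on exon reads, 5 of 16532 genes (0.0302%) had a slope with a Benjamini-Hochberg adjusted p-value under 0.05, all of them rising. In the exon reads scaled for depth, 10.2% of all genes had both 5 Day libraries above all of 2 Day and 7.6% had them below, which shows how often such an order occurs across genes. The 5 called genes were AFP (alpha-fetoprotein, a carrier protein of the fetal liver and yolk sac), APOB (the structural protein of lipoprotein particles), SERPINA1 (alpha-1-antitrypsin, a protease inhibitor secreted by the liver), VIL1 (villin, an actin-bundling protein of the gut and other absorptive epithelia) and TLX1 (a homeobox transcription factor). No gene fell by edgeR's test, where 366 genes with a negative slope and 444 with a positive one had an unadjusted p under 0.05, and DESeq2 called 5 rising genes and 1 falling one, which shared only SERPINA1 and TLX1 with the edgeR calls, so that AFP, APOB and VIL1 were not called by it. The median slope over all genes was -0.00166 on the log2 scale per day, the 95% interval reached a median of 0.104 to either side of a slope, and for 93.0% of the genes that interval lay within 0.5 of 0.

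**Figure D1:**
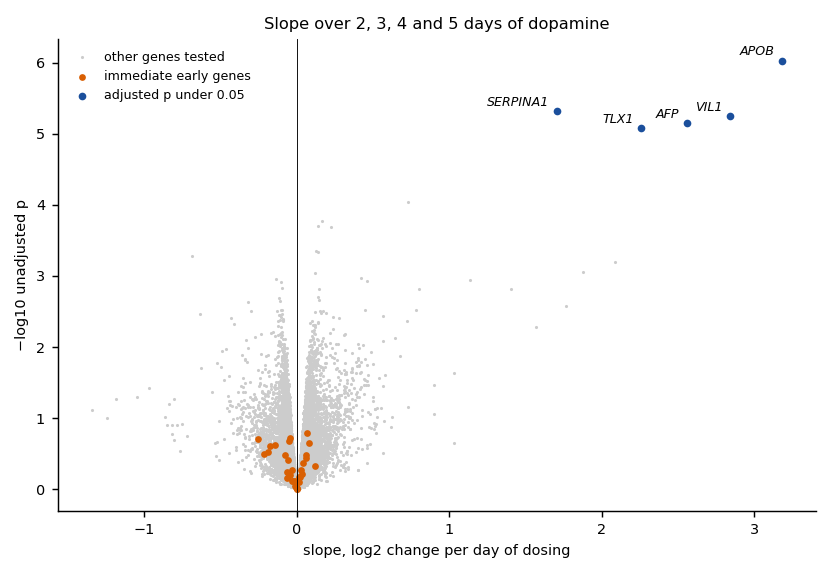
Each point is a gene, with its slope (log2 change per day of dosing, horizontal) against the −log10 of its unadjusted p (vertical); immediate early genes are orange and the 5 genes with an adjusted p under 0.05 are blue and named. The named genes stand alone at the right, where fitted slopes of genes with few or no reads at 2 Day depend on the prior count, while the 34 immediate early genes lie between -0.25 and 0.12.

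The reads of the 5 rising genes came mainly from 5 Day. APOB, SERPINA1, VIL1 and TLX1 had 10 or more reads in dopamine libraries of 5 Day only. AFP had that many earlier only in replicate 2 of 3 Day, too few libraries for the filter without 5 Day. All 5 therefore passed the filter on low counts through the day on which they were high. Their slopes, steps and departures, with the p-values, are read as a description of these libraries. AFP (ENSG00000081051, GRCh38 chr4:73431138-73456174) had 4, 7 and 1 exon reads at 2 Day, 7, 38 and 7 at 3 Day, 4, 2 and 3 at 4 Day, and 235 and 760 at 5 Day. In TPM it was at 27.4 and 74.3 at 5 Day, above the 0.0955 to 3.63 of the other 9 dopamine libraries and the 0.172 to 0.434 of the vehicle. Its slope was 2.56 ± 0.38 (SE, adjusted p = 0.0276), its step from 4 Day to 5 Day was 7.23 ± 0.60 (adjusted p = 0.000221), and it was the only 1 of the 5 that also departed from a line (adjusted p = 0.0171).

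APOB (ENSG00000084674, chr2:21001429-21044073) had 0 to 2 reads in each of the 9 libraries of 2 Day to 4 Day and in each vehicle library, and 34 and 103 at 5 Day. Its 5 Day level was at least 23.5-fold higher than a floor of 3 reads per 2 Day library, with an adjusted p of 0.0155 for the slope and 0.00386 for the step from 4 Day to 5 Day. AFP and APOB were the 2 genes past the test for that step (0.0121% of those tested), against 7 by DESeq2. No gene fell from 4 Day to 5 Day in the edgeR fit, in which 452 lower genes had an unadjusted p under 0.05, and DESeq2 called 1 lower gene.

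SERPINA1 (ENSG00000197249, chr14:94376747-94390693) had 1, 1 and 2 reads at 2 Day, 4, 3 and 1 at 3 Day, 5, 1 and 6 at 4 Day, and 13 and 56 at 5 Day. The 5 Day mean was at least 11.6-fold above the floor (slope, adjusted p = 0.0276). VIL1 (ENSG00000127831, chr2:218419121-218453295) had 0 or 1 reads in the 9 earlier libraries, 1, 1 and 4 in the vehicle and 12 and 29 at 5 Day, at least 7.17-fold above the floor (adjusted p = 0.0276). For both genes the 5 Day libraries lay above all others, and replicate 3 was the higher.

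TLX1 (ENSG00000107807, chr10:101131300-101137789) had 0 reads in the 3 libraries of 2 Day, 2, 1 and 0 at 3 Day, 6, 1 and 0 at 4 Day, and 14 and 19 at 5 Day, at least 6.08-fold above the floor (adjusted p = 0.0276). In the vehicle it had 16 reads in replicate 1 and 1 in each of the other libraries. The 5 Day libraries therefore lay above the other dopamine libraries but overlapped the vehicle.

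A wider list of 30 endoderm and liver genes, put together after these values had been seen and given without a test, describes the same libraries further. Of its members 16 passed the filter, some only through their 5 Day reads, and 8 had both 5 Day libraries above the other 9, as 1.96% of all genes tested did. Since the list was chosen on these values, the count supports nothing. Of the 16 slopes 3 were below 0, and 1 member was called lower at 3 Day than at 2 Day, where 0.932% of all genes were. The list's summed TPM was 1033 and 1585 at 5 Day, 1451 to 3189 at 2 Day and 1451 to 2274 in the vehicle. Most of that sum was TTR, which is also on the choroid plexus list and is described below. The sum therefore follows mainly that gene and says little about the other members. TTR was also the member called lower at 3 Day. The genes named next are examples with reads at 5 Day. FGB, the beta chain of fibrinogen, had 11 and 37 reads at 5 Day and 8 in replicate 2 of 3 Day, and 0 in all other libraries. MUC13, a mucin of intestinal epithelium, had 32 and 57 at 5 Day, 14 in replicate 2 and 5 in replicate 3 of 3 Day, and 0 in the other dopamine libraries. APOA1, the main protein of high-density lipoprotein, had 8 and 56 reads at 5 Day and 1 to 7 elsewhere (slope 1.14 ± 0.28, adjusted p = 0.884). ALB, the gene of serum albumin, did not pass the filter and had 33 reads in replicate 3 of 5 Day, 2 in replicate 2 and 0 to 3 elsewhere. HNF4A, a transcription factor of liver and gut, also failed the filter, with 5 and 11 reads at 5 Day and 0 to 3 before. Replicate 2 of 3 Day, in which AFP, FGB and MUC13 had reads, also had 12 reads of APOA2 (an apolipoprotein), which was otherwise seen at 5 Day with 10 and 34 reads and as 1 read at 2 Day.

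**Figure D2:**
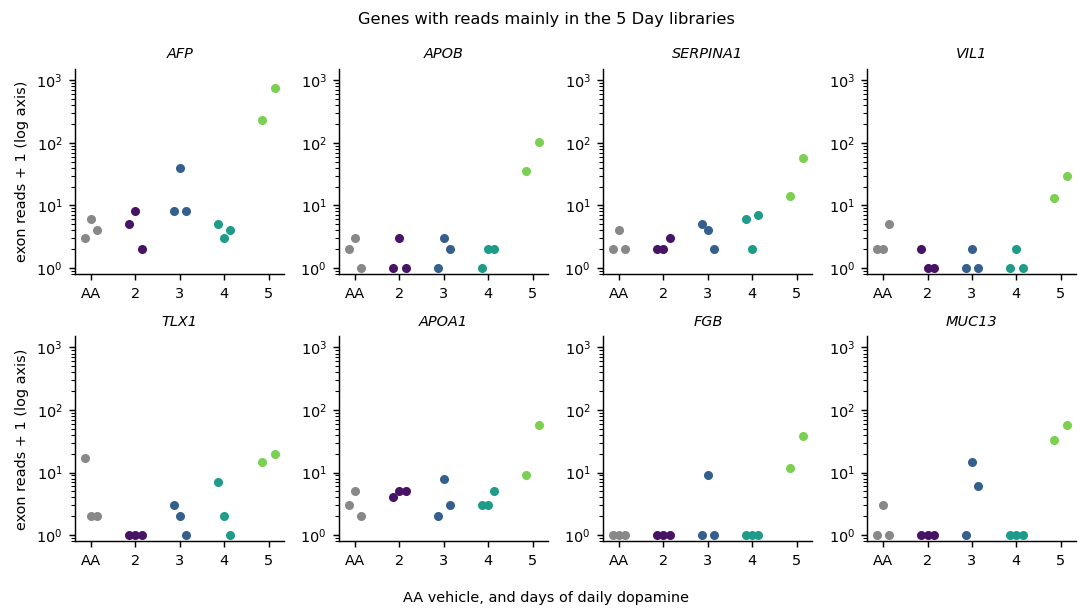
Exon reads plus 1 on a log axis for each library of the AA vehicle and of 2 to 5 days of dopamine, for the 5 genes past the slope test and 3 more liver or gut genes. Both 5 Day points lie above every other dopamine point in each panel, replicate 2 of 3 Day holds 38 AFP reads, and TLX1 has 16 reads in a vehicle library.

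The calls depended on single libraries. Without replicate 3 of 5 Day, or without replicate 3 of 2 Day, edgeR called 0 slopes (1060 and 829 at an unadjusted p under 0.05). It called 1 without replicate 2 of 2 Day, without replicate 1 of 3 Day and without replicate 3 of 3 Day, in each case APOB, and 2 without replicate 1 of 2 Day (APOB and VIL1). Without replicate 2 of 5 Day it called 6, of which APOB and SERPINA1 were among the 5 and the mitochondrial genes MT-CO3 and MT-ND3 fell. Where each gene had to have 10 exon reads in every library, which removes all 5, edgeR called 0 genes of 14389 (736 at an unadjusted p under 0.05). The values were also set beside the other experiment in which cultures had 5 daily doses of 1 mM dopamine and were harvested after 1 h: in its 3 libraries, AFP lay between a TPM of 0.0791 and 0.318 and APOB between 0.0166 and 0.155.

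The AFP promoter is shown because AFP had the most reads of the 5 genes at 5 Day, and because liver genes of its kind are known to be driven by HNF1 factors. The 200 bases before its RefSeq start (GRCh38.p14, chr4:73436021-73436220, plus strand, inside the longer gene span of the count tables) hold 1 match, in capitals, to an HNF1-type motif (GTTANT followed directly by NNTTAAC), searched on both strands. A match is a description of the letters and not evidence of binding, and 0.0655% of 35116 RefSeq promoter windows of that length hold it.
AFP: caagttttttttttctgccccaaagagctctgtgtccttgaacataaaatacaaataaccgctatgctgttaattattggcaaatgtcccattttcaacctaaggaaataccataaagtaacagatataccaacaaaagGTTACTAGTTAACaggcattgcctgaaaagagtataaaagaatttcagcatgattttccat

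The rising gene with the next smallest p by the naming rule was MALAT1. MALAT1, an abundant nuclear long noncoding RNA, had a TPM of 1088.6, 926 and 933 at 2 Day, 1052, 1036 and 1199 at 3 Day, 1456, 1162 and 1426 at 4 Day, and 1242 and 1492 at 5 Day. Both 5 Day libraries lay above the 3 of 2 Day, and the vehicle lay at 1159 to 1273. The slope was 0.17 ± 0.03, which edgeR did not call (adjusted p = 0.37) and DESeq2 did (adjusted p = 0.00514).

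The 5 falling genes with the smallest p did not pass the test (adjusted p = 0.884 each). ACTL6A (a BAF chromatin remodelling subunit) had a slope of -0.14 ± 0.03, FBLN1 (fibulin-1, a matrix protein) -0.10 ± 0.03, EIF3K (a translation initiation factor subunit) -0.10 ± 0.03, ROMO1 (a mitochondrial membrane protein) -0.12 ± 0.03 and UBL7 (a ubiquitin-like protein) -0.11 ± 0.03. In TPM each was lowest in replicate 2 of 5 Day, the library with the raised mitochondrial share, for example 18.3 for ACTL6A against 26.5 in replicate 3 of 5 Day and 27.7, 29.3 and 30.4 at 2 Day. Whether that share had a part in these values was not tested.

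Most immediate early genes lay above the vehicle in every dopamine library, which was not tested, and none of them had a called slope. FOS (ENSG00000170345, chr14:75278826-75282230), the founding member of the AP-1 family, had a TPM of 68.0, 70.4 and 55.2 at 2 Day, 66.9, 71.6 and 67.0 at 3 Day, 68.8, 66.7 and 67.6 at 4 Day and 57.0 and 58.1 at 5 Day, against 12.6, 12.8 and 13.4 in the vehicle. Its slope was -0.05 ± 0.04 with a 95% interval of -0.14 to 0.03. EGR1 (ENSG00000120738, chr5:138465479-138469303), a zinc finger factor induced through ERK, lay at 212, 237 and 159 at 2 Day, 287, 301 and 261 at 3 Day, 236, 226 and 217 at 4 Day and 245 and 189 at 5 Day, against 27.0, 28.6 and 35.0 in the vehicle. All 3 of its 3 Day libraries were above the other 8, but neither the step up (0.45 ± 0.17, adjusted p = 0.195) nor the slope (-0.00 ± 0.08, interval -0.16 to 0.16) passed the test.

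Libraries of different days overlapped for the other named members. EGR2, related to EGR1, lay at 5.60 to 9.64 against 0.312 to 0.447 in the vehicle. FOSB, whose stable splice form builds up in striatum with chronic drug exposure, lay between 1.5 and 4.49 over the 11 libraries and between 0.400 and 0.777 in the vehicle, with a slope of -0.14 ± 0.12. JUNB lay between 52.2 and 104 (vehicle 25.7 to 30.9), ARC, which regulates AMPA receptor trafficking, between 22.0 and 50.0 (vehicle 8.26 to 9.17), and NPAS4, a factor induced by calcium influx, between 3.29 and 8.31 (vehicle 1.60 to 2.94). Their slopes were -0.01 ± 0.08, 0.04 ± 0.07 and -0.06 ± 0.11. The dopamine and vehicle libraries did not overlap for any of these genes.

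**Figure D3:**
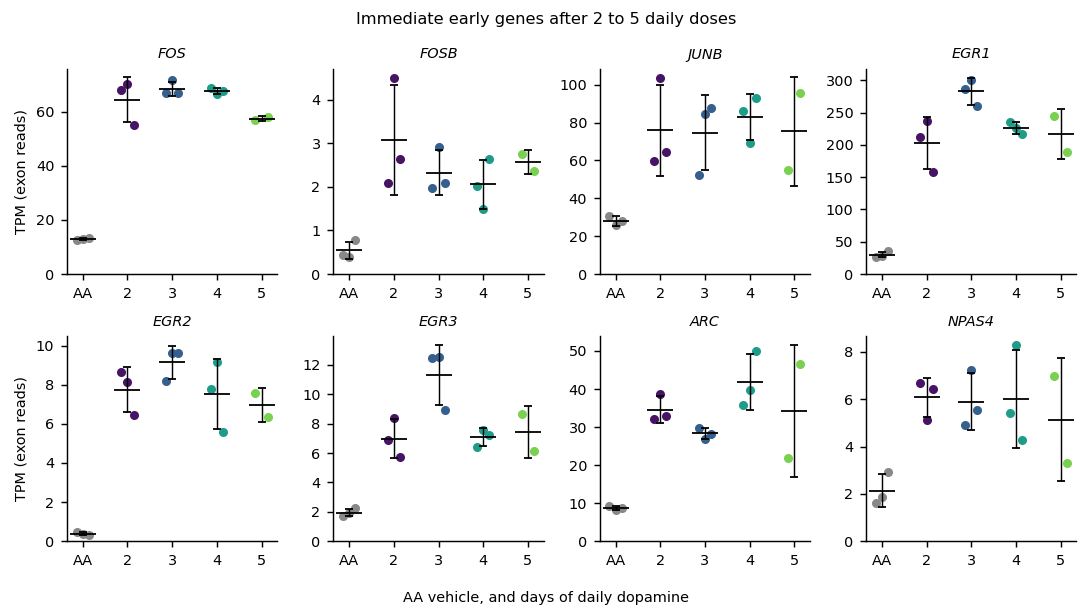
TPM of 8 immediate early genes in each library, by vehicle (AA) and day of dopamine; bars give the mean and SD of a group (3 libraries, 2 at 5 Day). The dopamine libraries lie above the vehicle in every panel and their days overlap, except that the 3 Day libraries of EGR1 and EGR3 are the highest.

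Over the list of 34 immediate early genes, all of which passed the filter, edgeR and DESeq2 called 0 slopes, and 0 had an unadjusted p under 0.05. The median slope was -0.01, beside -0.00166 over all genes, with 13 slopes above 0 and 21 below, and the 95% interval lay within 0.5 of 0 for 31 of them. For the same genes, 28 had all 11 dopamine libraries above the 3 vehicle libraries, against 1.91% of all genes tested, and only NR4A2, a nuclear receptor, had all 11 below, as 4.61% of all genes did. The median log2 difference from the vehicle was 0.97 at 2 Day, 1.28 at 3 Day, 0.99 at 4 Day and 0.93 at 5 Day, all 4 against the same vehicle libraries. SRF and CREB1, which encode factors that act upstream of these genes, had slopes of -0.00 ± 0.03 (interval -0.07 to 0.07) and 0.04 ± 0.04 (-0.05 to 0.13).

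The promoters of EGR1 and FOS are shown because both genes were far above the vehicle on every day with no called slope, and capitals mark matches on either strand to a serum response element (CCATAT followed directly by NNGG, a CArG box of the kind bound by SRF) and to the core of the cyclic AMP response element, TGACGT. In the 200 bases before the RefSeq start, EGR1 (GRCh38.p14, chr5:138465279-138465478, plus strand) holds 2 matches to the first and 2 to the second, and FOS (chr14:75278628-75278827, plus strand) holds 0 and 1. No matches overlap. Of 35116 promoter windows of this length, 0.262% hold the first and 6.32% the second, and no match says only that these letters are not in this window.
EGR1: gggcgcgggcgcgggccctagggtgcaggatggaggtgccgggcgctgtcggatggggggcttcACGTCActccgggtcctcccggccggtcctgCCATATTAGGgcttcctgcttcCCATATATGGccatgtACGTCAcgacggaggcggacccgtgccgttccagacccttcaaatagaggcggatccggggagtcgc
FOS: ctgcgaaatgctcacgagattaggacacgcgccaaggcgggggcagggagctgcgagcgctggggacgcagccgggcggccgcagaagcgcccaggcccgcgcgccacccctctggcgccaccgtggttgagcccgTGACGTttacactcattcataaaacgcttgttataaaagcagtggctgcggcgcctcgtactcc

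Genes that answer to ERK and to neuronal activity had no called slope either. None of 20 ERK feedback genes had a called slope (edgeR and DESeq2, 0 at an unadjusted p under 0.05), the median slope was 0.00, and the interval lay within 0.5 of 0 for all 20. DUSP6, a phosphatase of ERK, averaged 89.1, 103, 102 and 90.0 TPM from 2 Day to 5 Day against 42.9 in the vehicle, and SPRY4, an inhibitor of receptor tyrosine kinase signalling, 24.7, 29.9, 30.5 and 26.7 against 17.4. DUSP14 lay between 22.5 and 31.9 over the dopamine libraries and between 25.2 and 27.4 in the vehicle, which it overlapped. Of 24 activity-induced synaptic and secreted genes, 0 had a called slope by either tool (0 at an unadjusted p under 0.05), with a median of -0.01.

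No receptor gene passed the slope test. DRD2 had a slope of 0.08 ± 0.11, DRD1 -0.12 ± 0.21, DRD3 -0.25 ± 0.15, DRD4 0.01 ± 0.13 and the adenosine A2A receptor gene ADORA2A -0.10 ± 0.15, with adjusted p-values of 0.884 to 0.997. DRD5 and GABRR2 did not pass the filter on low counts, with at most 7 and 12 reads in a dopamine library. GRIN1, the obligatory subunit of NMDA receptors, averaged 5.14, 3.51, 5.26 and 5.15 TPM from 2 Day to 5 Day and 5.64 in the vehicle, with a slope of 0.02 ± 0.08 (interval -0.15 to 0.19).

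Some lists leaned to one side, with small slopes. Of 16 glutamate receptor genes 15 had a slope above 0 (median 0.07), and of 20 channel genes 19 (median 0.05), where 48.9% of all genes did. None passed the test by edgeR or DESeq2, with 2 and 4 at an unadjusted p under 0.05. Those with the smallest p were 0.17 ± 0.05 for SCN1A, a sodium channel, and 0.10 ± 0.03 for each of GRIN2D, an NMDA receptor subunit, and CACNA1A, a calcium channel. Cholesterol synthesis genes leaned the other way, with 24 of 25 slopes below 0 (median -0.05, 3 at an unadjusted p under 0.05), where 51.1% of all genes were below 0. FDPS, farnesyl diphosphate synthase, had -0.11 ± 0.03 and NSDHL, an enzyme of sterol demethylation, -0.11 ± 0.04 (adjusted p = 0.884 each), and in TPM both were lowest in replicate 2 of 5 Day. Without 5 Day the median of that list was -0.01, and without 2 Day it was -0.15. Slopes below 0 were also the more frequent ones in 22 of 24 ATF4 and unfolded protein response genes (median -0.03) and 19 of 22 glycolysis genes (median -0.03), and slopes above 0 in 14 of 16 GABA receptor genes (median 0.05), 15 of 20 synaptic vesicle genes (median 0.04) and 15 of 19 circadian clock genes (median 0.06). Other neuronal lists were split. Below 0 were 16 of 24 activity-induced genes, 8 of 11 genes of GABA synthesis and DLX factors and 7 of 10 cortical excitatory markers. Above 0 were 10 of 12 neuron markers, 14 of 19 striatal cAMP signalling genes and 13 of 19 striatal medium spiny neuron markers. Over all 40 lists, 635 genes were tested and 0 had a called slope by either tool, with 5.35% at an unadjusted p under 0.05 beside 4.90% of all genes.

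Departures from the line were far more frequent than slopes, and in most of them 3 Day stood apart from the other days. For 144 of 16532 genes (0.871%) the test of departure passed an adjusted p of 0.05, and in 97 of them the 3 Day libraries all lay above the other 8 dopamine libraries while in 31 they all lay below, as they did in 2.97% and 2.98% of all genes. The 144 were chosen by a test on these same libraries, so such an order is partly built in and is given as a description. From 2 Day to 3 Day, 362 genes changed (2.19%), of which 208 rose (1.26%) and 154 fell (0.932%), and from 3 Day to 4 Day 11 changed (0.0665%), of which 5 rose (0.0302%) and 6 fell (0.0363%). These steps share the 3 Day libraries with opposite sign, so a gene chosen for one is drawn to the opposite sign at the other. All 11 genes of the second step were among those 362.

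The 6 genes with the smallest p for the departure were SOST, THBS1, GRAMD1B, MXRA5, TSHZ3 and ATP2B2. SOST (ENSG00000167941, chr17:43753738-43758791), which encodes the Wnt inhibitor sclerostin, had a TPM of 6.71, 7.14 and 4.66 at 2 Day, 16.7, 26.0 and 18.2 at 3 Day, 6.25, 5.45 and 6.39 at 4 Day and 4.07 and 4.50 at 5 Day, with 4.18, 7.99 and 9.39 in the vehicle. The 3 Day libraries were above all others, by 1.68 ± 0.22 over 2 Day (adjusted p = 0.0091) and falling by 1.83 to 4 Day (SE 0.23, adjusted p = 0.0222).

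THBS1 (ENSG00000137801, chr15:39581079-39599466), which encodes the matrix protein thrombospondin-1, had 9.17, 15.3 and 18.7 at 3 Day, above the 3.97 to 4.84 of the other 8 dopamine libraries and the 5.25 to 7.79 of the vehicle. MXRA5, a matrix remodelling protein, was at 22.0, 39.5 and 40.1 at 3 Day, above 6.08 to 14.9 in the other 8 and 12.1 to 17.4 in the vehicle. Their steps from 2 Day to 3 Day were 1.59 ± 0.22 (adjusted p = 0.0109) and 1.96 ± 0.25 (adjusted p = 0.0091).

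For GRAMD1B, a sterol transporter, and TSHZ3, a zinc finger factor, the 3 Day libraries were near the vehicle and the others below it. GRAMD1B had 23.0, 22.0 and 21.8 at 3 Day, 12.4 to 18.1 in the other 8 libraries and 19.4 to 22.2 in the vehicle, and TSHZ3 had 20.3, 17.6 and 18.1 at 3 Day, 8.86 to 13.4 in the other 8 and 15.9 to 17.1 in the vehicle. ATP2B2, a calcium pump of the plasma membrane, fell instead, with 13.7, 11.3 and 12.8 at 3 Day, 16.8 to 25.1 in the other 8 and 18.3 to 22.0 in the vehicle (step -0.71 ± 0.09, adjusted p = 0.0091). Over the 208 genes that rose at 3 Day the median log2 difference from the vehicle was -0.17 at 2 Day, 0.45 at 3 Day, 0.00 at 4 Day and -0.07 at 5 Day, and over the 154 that fell it was 0.33, -0.61, 0.03 and 0.01. Both sets were chosen on the 2 Day and 3 Day libraries, so these medians partly follow from the choice. The 3 Day mean was nearer to the vehicle than the 2 Day mean for 71 of the 208 and 47 of the 154, and for 48.9% of all genes.

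**Figure D4:**
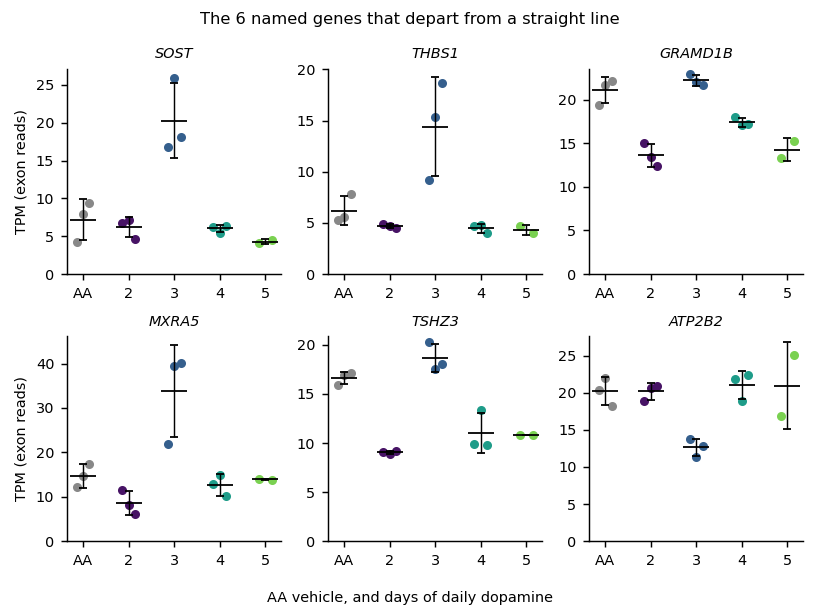
TPM in each library, by vehicle (AA) and day of dopamine, of the 6 genes with the smallest p for a departure from a straight line; bars give the mean and SD of a group (3 libraries, 2 at 5 Day). The 3 Day points stand above the other dopamine points in 5 panels and below them for ATP2B2, and the vehicle sits near the 3 Day level for GRAMD1B and TSHZ3.

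Several matrix genes rose at 3 Day. Of 29 matrix glycoprotein genes tested, 5 rose from 2 Day to 3 Day and 0 fell, where 1.26% of all genes rose (by DESeq2 8 of the 29 and 354 of 16532 rose), 18 steps were above 0, and the median step was 0.17 beside 0.00 over all genes. They were FN1 (fibronectin, 1.25 ± 0.29), LAMA1 and LAMC1 (laminin chains, 0.71 ± 0.13 and 0.48 ± 0.11), THBS1 and THBS2 (0.61 ± 0.14). LOX, a collagen crosslinking enzyme on the list of HIF targets, rose by 0.53 ± 0.11 and fell by 0.79 to 4 Day (SE 0.11, adjusted p = 0.0309). Among 24 collagen genes only COL21A1 was called, where 2.19% of all genes were, and it fell (-1.60 ± 0.38, adjusted p = 0.0479).

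TAGLN (transgelin) and ACTA2 (smooth muscle actin), both contractile genes and both on the list of mesenchymal markers, rose by 1.96 ± 0.44 and 1.79 ± 0.32. ACTA2 was at 92.6, 223 and 257 at 3 Day, above 33.0 to 81.5 in the other 8 libraries, and TAGLN at 54.4, 180 and 247, where replicate 1 overlapped the 19.7 to 65.0 of the others. The summed TPM of all 12 mesenchymal markers was 301 to 475 at 2 Day, 442, 813 and 997 at 3 Day, 498 to 520 at 4 Day, 385 and 572 at 5 Day and 257 to 348 in the vehicle, with all 12 at a mean TPM of 1 or more on each day. ACTA2 and TAGLN supply much of the 3 Day sum, so it largely repeats their values. They were the only 2 of the 12 markers called at the step from 2 Day to 3 Day, where 1.26% of all genes rose. Of the 12 steps 10 were above 0 and 2 below (median 0.27). Within 3 Day this sum, like ACTA2 and TAGLN, was lowest in replicate 1 and highest in replicate 3. That order was also seen for FN1, THBS1, LAMA1 and LAMC1 but not for THBS2. The marker list shares 3 genes with the collagen list and 3 with the matrix glycoprotein list, and its part in the matrix values was not tested.

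Of the Wnt and the TGF-beta and BMP lists 3 genes each rose at 3 Day. WNT7A, a Wnt ligand, rose by 1.78 ± 0.25, from 5.98 to 9.05 TPM at 2 Day to 23.3, 26.5 and 24.6 at 3 Day, with 7.40 to 13.4 at 4 Day and 5 Day and 18.7 to 25.4 in the vehicle. RSPO1, which amplifies Wnt signals, rose by 0.64 ± 0.14 and ZNRF3, a ubiquitin ligase that removes Wnt receptors, by 0.47 ± 0.10. Of 35 Wnt pathway genes these 3 rose and 0 fell, where 1.26% of all genes rose and 0.932% fell, and 19 of the 35 steps were below 0 (median -0.01). TGFB3 (1.47 ± 0.24), BMP6 (1.22 ± 0.24) and FST, the activin antagonist follistatin (2.25 ± 0.52), rose among 32 TGF-beta and BMP genes, of which 0 fell and 19 had a step below 0 (median -0.03), beside the same 1.26% and 0.932% of all genes. At 3 Day WNT7A overlapped the vehicle, and FST lay above it, with 525, 562 and 517 TPM against 359 to 486, and 63.9 to 281 in the other 8 libraries.

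Single members of other lists rose too. IER3, an immediate early gene of survival signalling, rose by 1.00 ± 0.18 (adjusted p = 0.0214), from 149, 164 and 101 at 2 Day to 210, 316 and 322 at 3 Day. It was the only 1 of the 34 immediate early genes called at that step, where 2.19% of all genes were. CRYAB, a small heat shock protein, rose by 2.15 ± 0.35, to 39.9, 82.9 and 64.8 from 9.69 to 18.2. MSMO1, an enzyme of cholesterol synthesis, rose by 0.50 ± 0.11, and 22 of the 25 genes of that list had a step above 0 (median 0.18). The glycolysis gene PKM rose by 0.50 ± 0.11, CA12 and INSIG2, both HIF targets, by 0.69 ± 0.11 and 0.55 ± 0.10, the p53 target PLK3 by 0.49 ± 0.10, RGS4, a brake on G protein signalling, by 0.49 ± 0.11, and ADORA1, the adenosine A1 receptor gene, by 0.41 ± 0.10. Their lists did not all lean that way. Steps were below 0 for 15 of 22 glycolysis, 11 of 18 HIF target and 4 of 7 receptor genes. They were above 0 for 12 of 20 p53 and 15 of 24 activity-induced genes. Called higher were 1, 3, 1, 1 and 1 of these lists, where 1.26% of all genes rose.

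Some markers of several cell types fell at 3 Day. TTR (transthyretin), KCNJ13 and FOLR1, markers of the choroid plexus, fell by 1.76, 1.20 and 0.89 (SE 0.39, 0.26 and 0.17). The 3 Day TTR libraries were at 444, 591 and 989 TPM, below 1426 to 3161 at 2 Day, but replicate 2 of 4 Day, at 611, and replicate 2 of 5 Day, at 970, overlapped them. The summed level of the 6 choroid plexus markers was 1501 to 3271 at 2 Day, 488 to 1061 at 3 Day, 669 to 2115 at 4 Day, 1017 and 1493 at 5 Day and 1493 to 2341 in the vehicle. CLDN5, a tight junction gene on the endothelial list, fell by 2.30 (SE 0.43), but of the 4 members tested 2 steps were above 0 and 2 below. HES5, a progenitor factor, fell by 1.55 (SE 0.26), and EOMES and NEUROG2, factors of cortical neuron formation, by 0.80 and 0.61 (SE 0.19 and 0.13). Steps were below 0 for 10 of 12 progenitor and 8 of 10 cortical markers. NES, the progenitor filament nestin, rose by 0.38 ± 0.09. None of the 19 striatal markers tested was called at this step, where 2.19% of all genes were, so the count says little about them. MEIS2, a striatal factor, was called only for the departure (adjusted p = 0.0324). It had 50.3 and 61.8 TPM at 5 Day, above 34.0 to 47.0 in the other 9 libraries, and 42.5 to 55.3 in the vehicle.

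GADD45G, a growth arrest gene on the activity list, fell by 0.66 from 2 Day to 3 Day (SE 0.15). Genes called at the step from 3 Day to 4 Day that lay outside the lists included KCNK2, a potassium leak channel (0.91 ± 0.14 at 3 Day, then falling by 0.93), and PCDH20, GJD2, SH3GL2 and SMARCA2, which fell at 3 Day by 1.48, 1.08, 0.35 and 0.36 and rose again by 1.24, 1.00, 0.56 and 0.50. GJD2 forms gap junctions between neurons, SH3GL2 (endophilin A1) acts in vesicle recycling and SMARCA2 is a BAF remodelling ATPase. In all, 27 listed genes rose and 11 fell at 3 Day among the 635 tested, where 1.26% and 0.932% of all genes did.

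**Figure D5:**
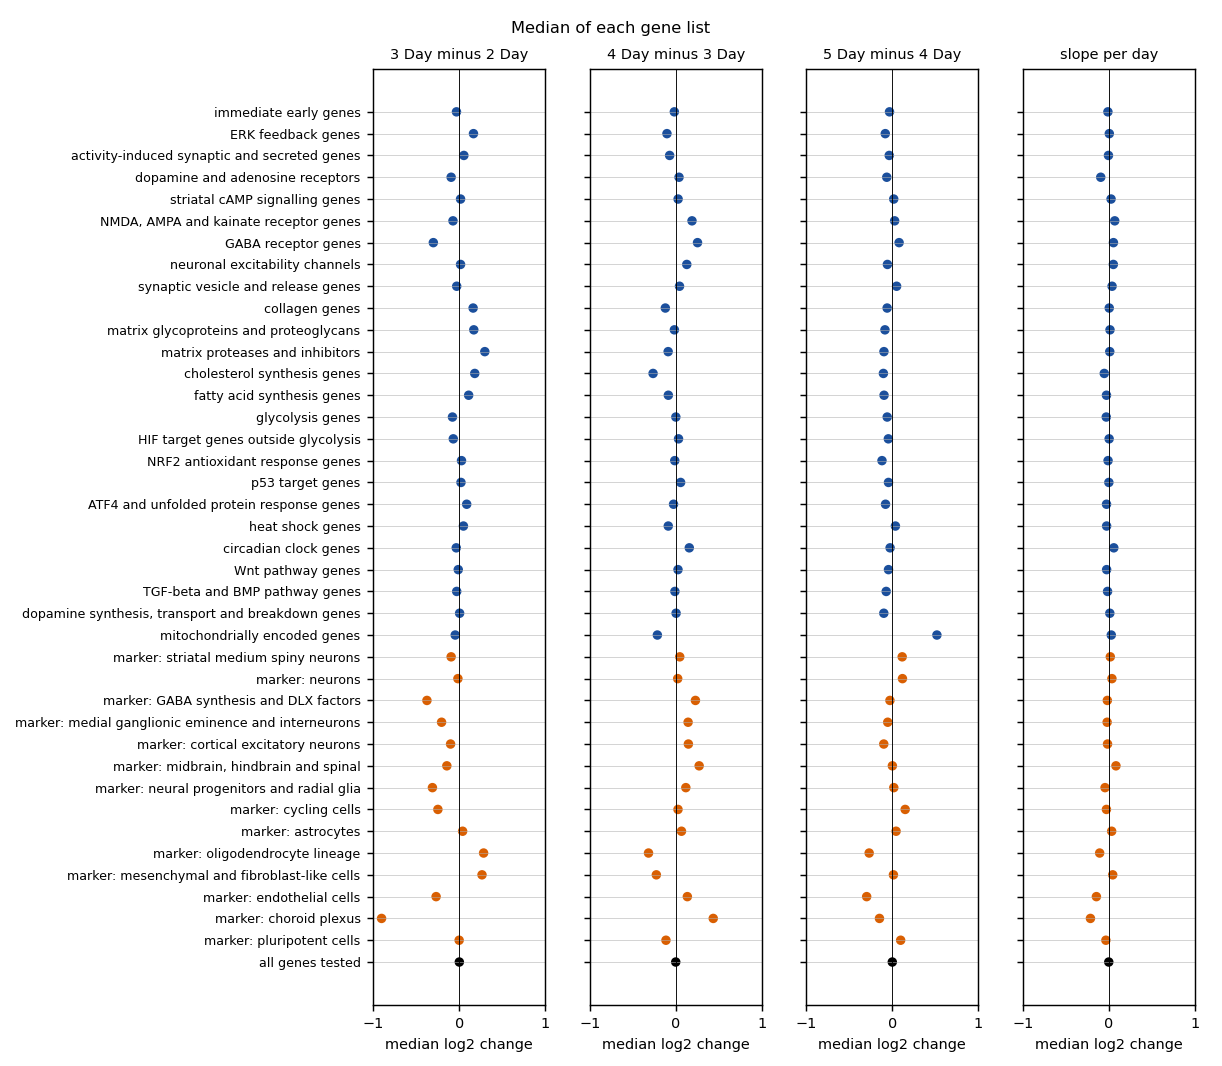
Median log2 change of the tested genes of each list (pathway lists blue, cell type markers orange, all genes black) for the 3 steps between days and for the slope per day; lists with fewer than 3 tested genes are left out. The slopes lie close to 0, the choroid plexus median falls to -0.90 at 3 Day and returns by 0.44, and the mitochondrial median of 0.52 appears at the step to 5 Day.

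The counts at 3 Day depended on single libraries. Without replicate 2 of 2 Day, or without replicate 2 of 3 Day, edgeR called 0 genes between 2 Day and 3 Day (2043 and 2272 at an unadjusted p under 0.05), and 36 without replicate 3 of 3 Day, 107 without replicate 3 of 2 Day, 218 without replicate 1 of 2 Day, 200 to 216 without replicate 3 or 1 of 4 Day, and 623 or 626 without a 5 Day library. The departure count was 1 without replicate 2 and 4 without replicate 3 of 3 Day, 10, 60 and 81 without replicates 2, 3 and 1 of 2 Day, 48 and 62 without replicates 3 and 1 of 4 Day, and rose to 297 without replicate 1 of 3 Day and to 370 and 708 without replicates 2 and 3 of 5 Day. With total gene reads, which add intron reads to exon reads, edgeR called 0 genes at this step (2591 at an unadjusted p under 0.05), and with the intron share as a covariate 28 rose and 9 fell. Under total gene reads, and without replicate 2 of 2 Day or of 3 Day, 0 of the matrix, Wnt, TGF-beta and choroid plexus genes were called, while the medians kept their sign for the choroid plexus markers (-0.51 without replicate 2 of 2 Day) and the matrix glycoproteins (0.16 to 0.18).

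Intron reads, which come largely from unspliced transcripts, had 0 called slopes among 18436 genes (edgeR, 549 at an unadjusted p under 0.05; no other tool was run), also without any 1 of the 11 libraries. In the other 1 mM experiment, where a single dose was given at DIV45 and 5 doses ended at DIV50, 956 genes were higher and 1052 lower after 5 doses than after 1 (5.37% and 5.91% of 17804 genes), 11.3% in either direction, and counts that change widely with the libraries in the fit. There FOSB fell by 3.16 (SE 0.33, adjusted p = 0.000156), from a TPM of 61.9 ± 12.6 after 1 dose to 7.47 ± 1.56 after 5 (SD, 3 libraries each), and IER3 fell by 1.14 (SE 0.29, adjusted p = 0.0232). FOS (-0.68 ± 0.42) and EGR1 (-0.69 ± 0.82) did not pass in this fit of 15 libraries, which does not show that they were unchanged. Over the 2 to 5 doses of the time course FOSB lay between 1.5 and 4.49. Culture age and number of doses cannot be told apart in that contrast, and levels of the separately made experiments were not tested against each other.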

How the data were processed

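Total RNA of H9 hMSN-like cells was sequenced, and the authors used CLC Genomics Workbench to map reads against GRCh38 and an Ensembl gene set. For each library they deposited a table of 60676 genes with exon, intron and total read counts and TPM from exon reads. The strand setting and the sequencing provider of each library are not given in the sources used here. From the deposited counts, exon reads of the 11 dopamine libraries (8449292 to 14303800 per library) went into edgeR 4.0.16 (R 4.3.3). Low genes were removed by filterByExpr, set to a minimum count of 10 and a minimum total of 15, libraries were scaled by TMM, and models came from glmQLFit with tests by glmQLFTest. Day was fitted as a number for the slope, as 4 groups for the steps, and the departure was the test with 2 degrees of freedom between them. A call had a Benjamini-Hochberg adjusted p under 0.05, a standard error was the absolute log2 change divided by the square root of F, and intervals are 95%. The floor of 3 reads per library covers counting error only. Vehicle libraries entered no test. The 1 mM contrast was fitted on its own 15 libraries. TPM was used for levels and, as log2(TPM + 1), in a limma 3.58.1 fit.

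Genes were named by a rule: the 12 largest slopes in each direction among called genes with a mean TPM of at least 1 on some day and no overlap of 5 Day with 2 Day (where fewer than 5 met it, the 5 smallest p, said not to have passed), the 6 smallest p for the departure, called members of the lists, genes the paper names and receptor genes. VIL1, the called genes of the steps outside the lists, and further list members given as examples were chosen after their values were seen. The members, the 40 gene lists and the tests were chosen with earlier results of these data known, and the endoderm and liver list was added after seeing the values. Some called list members are not reported here. Promoters are from RefSeq (GRCh38.p14), and all 3 symbols matched. Alternatives were DESeq2 1.42.0's size factors and test, other filters, total gene reads, replicate number as a block, vehicle libraries in the fit, thinning to 8449292 reads, the intron share, groups left out and each library left out. Robust empirical Bayes, and the steps without 5 Day, were added after seeing the data. The fit was tested on simulated data. Of the series' other libraries, 24 were not used. Python 3.11.15 with pandas 2.3.3, numpy 2.4.6, scipy 1.17.1 and matplotlib 3.10.9 made tables and figures. No pair of libraries had identical counts.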

Additional observations from a re-analysis of the deposited data

How the results depend on the processing

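Counts of called genes were the least stable results. Slopes were 5 in the reported fit, 12 with no filter on low counts, 3 without 2 Day, and 0 with 10 exon reads in every library, total gene reads, the replicate block, limma on log2(TPM + 1) or without 5 Day (736, 1186, 1028, 452 and 859 at an unadjusted p under 0.05). Departures were 144, and 538 with DESeq2's test, 1356 with no filter, 388 with vehicle libraries in the fit, 94 with the replicate block and 0 with total gene reads (2168 at an unadjusted p under 0.05). From 2 Day to 3 Day there were 362, and 657 with DESeq2's test, 1292 with no filter, 648 with vehicle libraries, 675 without 5 Day, 37 with the intron share as a covariate and 0 with total gene reads. From 3 Day to 4 Day there were 11, and 177, 668, 67 and 94 under the first 4 of these, 63 with the intron share, 5 with thinned libraries and 0 with total gene reads (1805 at an unadjusted p under 0.05). From 4 Day to 5 Day there were 2, and 7 with DESeq2's test, 118 with no filter, 1 with total gene reads, 1 with the replicate block and 0 with 10 exon reads in every library (783 at an unadjusted p under 0.05). Leaving out 1 library gave 0 to 7 slopes, 1 to 708 departures, 0 to 626, 0 to 181 and 1 to 258 genes for the 3 steps, and 0 slopes of intron reads. The largest of these came without replicate 3 of 5 Day for the departure, the first and the last step, and without replicate 1 of 3 Day for the second, which had 0 without replicate 2 or 3 of 3 Day or replicate 3 of 4 Day (1453, 1622 and 1298 at an unadjusted p under 0.05), 1 without replicate 2 of 2 Day or replicate 1 of 4 Day, 5 without replicate 1 of 2 Day, 27 without replicate 2 of 4 Day, and 80 and 88 without replicates 2 and 3 of 5 Day. The last step had 4 without replicate 1 and 1 without replicate 3 of 4 Day. The 1 mM contrast had 2008, 7388 with only its 2 groups, and 818 to 6183 with 1 library left out, the highest without replicate 1 of 1 mM Acute 24 h. The cause of these differences was not tested.

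The labels do not say whether replicate numbers pair the cultures. Over 15 pairs of libraries with the same number, deviations from the day means correlated at -0.193 to 0.183 (mean 0.0058), and over other pairs at -0.247 to 0.249. With so few libraries per day, these correlations cannot decide whether cultures were paired. The block left 228 of the 362 calls of the first step and 0 of the 5 slopes. Of 2789 values of single named genes under an alternative, 0 reversed a called direction, 390 lost the call and 2 gained it (MALAT1 with DESeq2's test, and SOST without 2 Day, at -1.24 per day). Most of the 2789 were slopes of 75 genes, of which only 5 had a call to lose, and 48 of those values lost it. At the step from 2 Day to 3 Day, 342 values of 48 genes lost the call and 666 kept it. The sign changed in 210 values that were called in neither fit. Depth limits the genes with few reads at 2 Day, whose change is given only as a bound.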

Other observations

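All 13 mitochondrially encoded protein genes were higher at 5 Day than at 4 Day, by a median of 0.52 on the log2 scale beside 0.00 over all genes, and 0 passed the test by edgeR (0 at an unadjusted p under 0.05, smallest adjusted p = 0.867) or DESeq2. Their share of exon reads was 6.67, 6.62 and 7.25% at 4 Day and 12.1 and 5.70% at 5 Day, so the difference rests on replicate 2 and replicate 3 lay below the 4 Day libraries. Without replicate 2 of 5 Day the list's median slope was -0.19 per day, and without replicate 3 it was 0.11. Without replicate 2 edgeR called 6 slopes, of which MT-CO3 and MT-ND3 fell and 2, APOB and SERPINA1, were among the 5 of the reported fit.

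All 16 members of a list of cycling markers, among them the proliferation antigen MKI67, were lower on average than the vehicle at 3 Day, 4 Day and 5 Day, with median log2 differences of -0.38, -0.32 and -0.20, and 12 of 16 were lower at 2 Day (median -0.14). Of all 16532 genes tested, 8843, 8252, 8758 and 8526 were higher than the vehicle at 2 Day, 3 Day, 4 Day and 5 Day. The same 3 vehicle libraries serve every day, these differences were not tested, and over the days 0 of the 16 had a called slope (1 at an unadjusted p under 0.05). Their summed TPM was 897 in replicate 2 of 5 Day and 1516 in replicate 3, against 1359 to 1472 in the vehicle, so replicate 3 lay above every vehicle library, and replicate 3 of 2 Day, at 1380, lay among them. Mitochondrially encoded genes took 41.5% of the TPM in replicate 2 of 5 Day and 22.6% in replicate 3. A larger share leaves less TPM for nuclear genes, and its part in these sums was not tested.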
